A study of Homo sapiens with 9 samples.

Results

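The Notch genes examined here were 3 receptors (NOTCH1, NOTCH2 and NOTCH3), 3 ligands (JAG1, JAG2 and DLL1), 1 receptor modifier (LFNG) and 3 target genes (HES1, HEY1 and NRARP), chosen by symbol. All 10 were found among the 31558 genes of the count table, and all 10 were tested in each comparison. Notch receptors sit at the cell surface and are bound by Jagged or Delta ligands on a neighbouring cell. Binding lets an ADAM protease and then gamma-secretase cut the receptor, and the freed intracellular part enters the nucleus, where it joins the DNA-binding protein RBPJ and Mastermind coactivators to switch on HES and HEY repressors and the feedback inhibitor NRARP. In the intestinal epithelium this pathway is known for keeping progenitor cells proliferating and for holding back secretory cell fates.

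The cells were HCT116, a human colorectal carcinoma line, and all of them carried an introduced plasmid. The paper calls the cells of this RNA-seq transfected, so stable introduction in all 9 samples is not taken as given. In CRLM1-OE the plasmid expressed the lncRNA CRLM1 (LINC01767), in Ctrl it was empty, and in Anti it held the CRLM1 sequence in antisense, with 3 biological replicates in each group. For CRLM1 expression the paper describes a lentiviral vector with GFP and puromycin resistance. Whether each group was a single clone, a pool or separate introductions is not given in the sources used here. If the replicates of a group are cultures of the same line, the p values measure the spread between cultures. They would then not measure the spread between separate introductions of the plasmid. PolyA RNA was sequenced, and the total counts per sample ran from 33302292 to 44514692. The CRLM1 gene itself had between 32751 and 38704 counts in CRLM1-OE, 0 in every Ctrl sample and between 1540 and 1951 in Anti, so Anti differed from Ctrl in reads on this gene.

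Levels are given as FPKM, which is scaled for exon length and for the sample's mapped fragments, and differences as log2 fold changes of TMM-normalised counts with their standard error (SE). A gene passed where edgeR's quasi-likelihood test gave an adjusted p (Benjamini-Hochberg) no higher than 0.05, and a fold change of 2 served as a second limit. The 3 comparisons share samples pairwise and are not independent of one another. The 6 epithelial markers summed to between 4570 and 5560 FPKM in the 9 samples, against between 0.05 and 0.14 for 4 endothelial markers and between 1.3 and 2.03 for the leukocyte markers. The fibroblast markers summed to between 2.03 and 2.48 FPKM in CRLM1-OE and to between 1.15 and 1.38 in Ctrl and Anti. Of the 5 listed, COL1A2 and LUM were at 0 or unlisted in every group. The highest value of a single fibroblast marker in CRLM1-OE was 2.48 FPKM, so there 1 gene held nearly the whole sum. The part of this difference in fibroblast markers in the results was not tested. In RNA from whole cultures, fewer cells expressing a gene and less RNA per cell cannot be told apart.

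Against Ctrl, 8 of the 10 Notch genes were higher in CRLM1-OE, including every receptor and every ligand, and 1 (HES1) was lower. None of the 10 reached a 2-fold change. Of all 29846 genes tested in this comparison, 15.0% passed as higher and 16.8% as lower, and among genes averaging 100 counts or more the shares were 29.2% and 38.8%. The 2-fold limit was passed by 3.41% of all genes. The median log2 fold change of the 10 genes was 0.41, beside -0.035 over the 12928 genes averaging 50 counts or more. Scaling by total counts in place of TMM moved that general median to 0.106, and in the comparison of Anti with Ctrl from -0.002 to 0.102, so small differences from Ctrl depend on the scaling.

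Against Anti, 3 genes (NOTCH2, NOTCH3 and HES1) were higher in CRLM1-OE and 2 (JAG1 and LFNG) were lower, with 5 not passing and 0 past 2-fold. In this comparison 17.1% of 30183 genes passed as higher and 18.5% as lower, with 33.9% and 40.2% among genes averaging 100 counts or more, and 5.65% passed the 2-fold limit. Anti itself differed from Ctrl in 7 of the 10 genes, of which 6 were higher (NOTCH1, NOTCH2, JAG1, JAG2, DLL1 and LFNG) and 1 (HES1) was lower. Here 11.5% of 29714 genes passed as higher and 12.2% as lower, 25.3% and 28.9% among those averaging 100 counts or more, and 1.06% passed the 2-fold limit, which none of the 10 did.

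**Figure D1:**
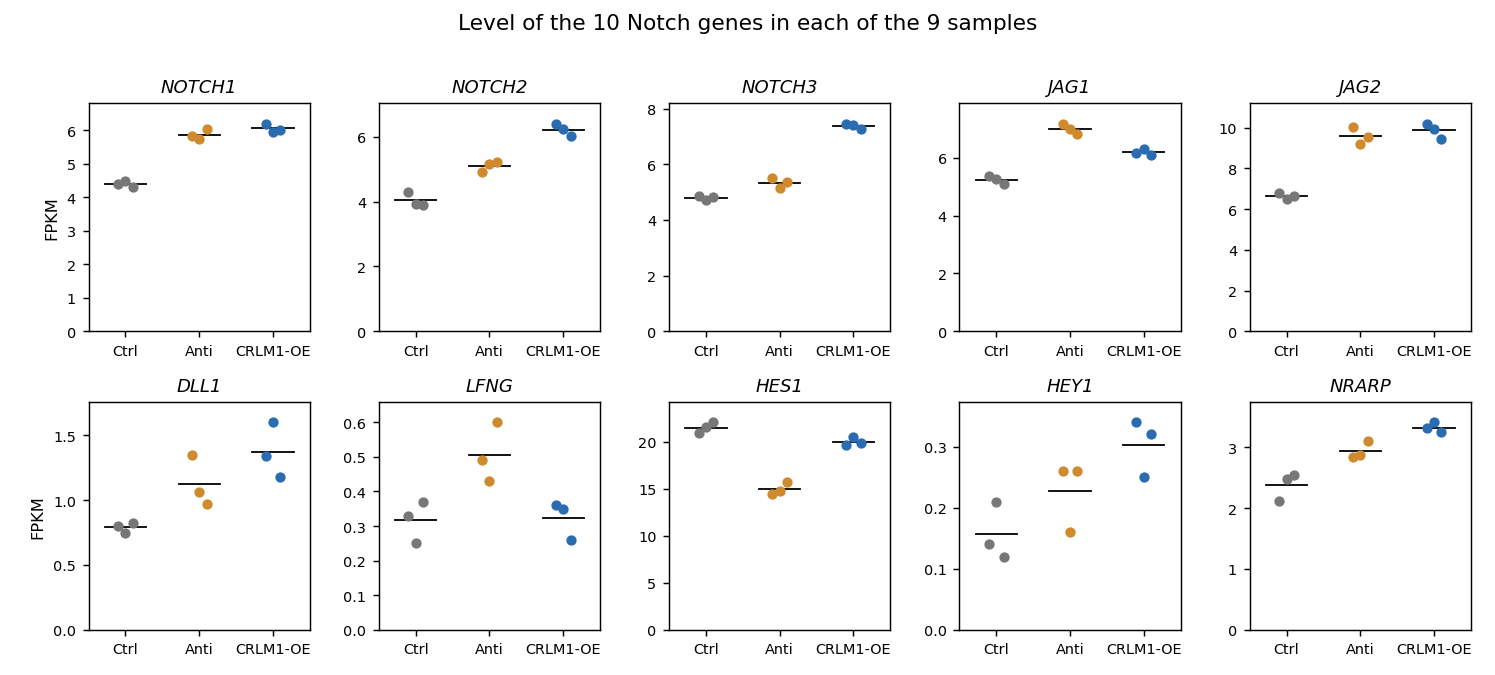
FPKM (vertical axes, each from 0) of the 10 Notch genes in the 9 samples, with 1 point per replicate and a line at the group mean. NOTCH3 in CRLM1-OE (7.28 to 7.46) lies above both controls, NOTCH1 and JAG2 overlap between CRLM1-OE and Anti and are lower in Ctrl, and HES1 is lowest in Anti (14.46 to 15.7).

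**Figure D2:**
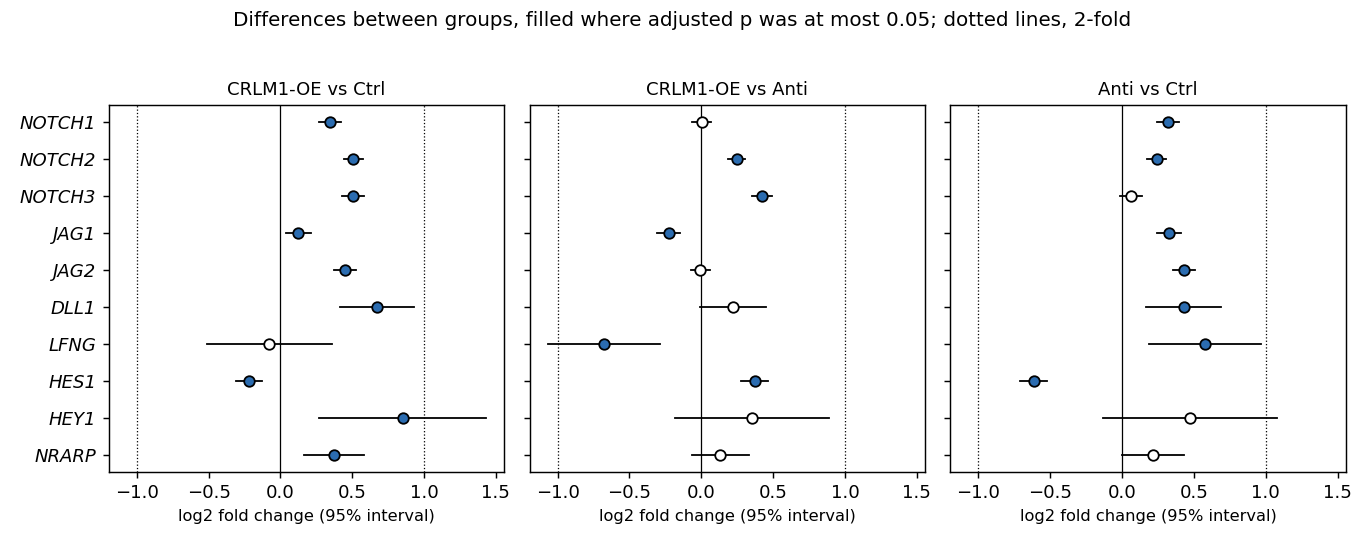
Log2 fold change of each gene (points) with its 95% interval (bars) in the 3 comparisons, filled where the adjusted p was at most 0.05, with dotted lines at a 2-fold change. In CRLM1-OE vs Ctrl 9 points are filled, 8 of them to the right of 0, and no filled point in any panel lies beyond the dotted lines.

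NOTCH1 encodes the receptor first tied to leukaemia and is a main Notch receptor of intestinal crypts. NOTCH1 (ENSG00000148400.9, chr9:136494433-136546048 on the reverse strand of GRCh38) measured 6.20, 5.95 and 6.02 FPKM in the CRLM1-OE replicates, 4.41, 4.49 and 4.32 in Ctrl, and 5.84, 5.73 and 6.03 in Anti. The CRLM1-OE and Anti ranges overlapped, and both lay above Ctrl. The two-sided test gave a log2 fold change of 0.35 ± 0.039 (SE) for CRLM1-OE against Ctrl (adjusted p = 6.8e-18) and 0.32 ± 0.039 for Anti against Ctrl (adjusted p = 2.6e-15). CRLM1-OE and Anti gave a difference of 0.0019 with a 95% interval from -0.067 to 0.0709 (adjusted p = 0.99).

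NOTCH2, a receptor that overlaps with NOTCH1 in crypt cells, followed a graded order. NOTCH2 (ENSG00000134250.17, chr1:119911553-120100779, reverse strand) measured 6.40, 6.23 and 6.02 FPKM in CRLM1-OE, 4.28, 3.93 and 3.89 in Ctrl, and 4.90, 5.15 and 5.21 in Anti. No 2 groups overlapped, with Anti between the others. The log2 fold changes were 0.51 ± 0.032 for CRLM1-OE against Ctrl, 0.25 ± 0.029 for CRLM1-OE against Anti and 0.24 ± 0.033 for Anti against Ctrl, and the adjusted p values were 2.2e-54, 1.5e-16 and 6.4e-12. NOTCH2 has near-identical partial copies, and reads could be split between them. Of the 2 rows named NOTCH2NL, the one with more reads (ENSG00000213240.8, between 318 and 687 counts) was also higher in CRLM1-OE, by 0.35 against Ctrl and 0.68 against Anti, but lower in Anti than in Ctrl, with a log2 fold change of -0.36 (adjusted p = 1e-04) that did not pass with limma on log2(FPKM + 0.1) or log2(FPKM + 1) (adjusted p = 0.051 and 0.06). The row with fewer reads (ENSG00000264343.5, between 53 and 117 counts) passed for Anti against Ctrl alone, at 0.47 (adjusted p = 0.023), and not without Ctrl replicate 3 (0.382, adjusted p = 0.12) or Anti replicate 1 (0.376, adjusted p = 0.16), with DESeq2 (adjusted p = 0.081) or with limma (adjusted p = 0.15 and 0.071).

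NOTCH3, known best from vascular smooth muscle and also expressed in colorectal tumours, separated CRLM1-OE from both controls. NOTCH3 (ENSG00000074181.8, chr19:15159038-15200995, reverse strand) measured 7.46, 7.43 and 7.28 FPKM in CRLM1-OE, 4.87, 4.73 and 4.82 in Ctrl, and 5.50, 5.16 and 5.37 in Anti. NOTCH3 was higher by 0.51 ± 0.038 on the log2 scale than Ctrl (adjusted p = 4.1e-39) and by 0.42 ± 0.036 than Anti (adjusted p = 3.1e-31). Anti and Ctrl differed by 0.061 ± 0.040, with a 95% interval from -0.0177 to 0.139 (adjusted p = 0.34), although their FPKM values did not overlap. With total counts as the scaling this last difference was 0.166 and passed (adjusted p = 0.00024), and limma on FPKM also called it.

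Added up, the 3 receptors measured 19.7 ± 0.373 FPKM (SD, n = 3) in CRLM1-OE, against 13.2 ± 0.278 in Ctrl and 16.3 ± 0.289 in Anti. FPKM is not scaled by the TMM factors, which ran from 1.046 to 1.053 in CRLM1-OE and from 0.9448 to 0.9547 in Ctrl. Rises from Ctrl are therefore larger in FPKM than in the tests. NOTCH3 held the greatest share in CRLM1-OE, 37.6% ± 0.36 (SD, n = 3), and in Ctrl, 36.3% ± 0.607, while in Anti NOTCH1 led with 36.0% ± 0.292 against 32.8% ± 0.937 for NOTCH3. The NOTCH2 share was between 29.9% and 32.1% in all 9 samples. These shares are descriptions without a test. The fourth receptor, NOTCH4, had between 2 and 13 counts per sample and passed in no comparison.

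**Figure D3:**
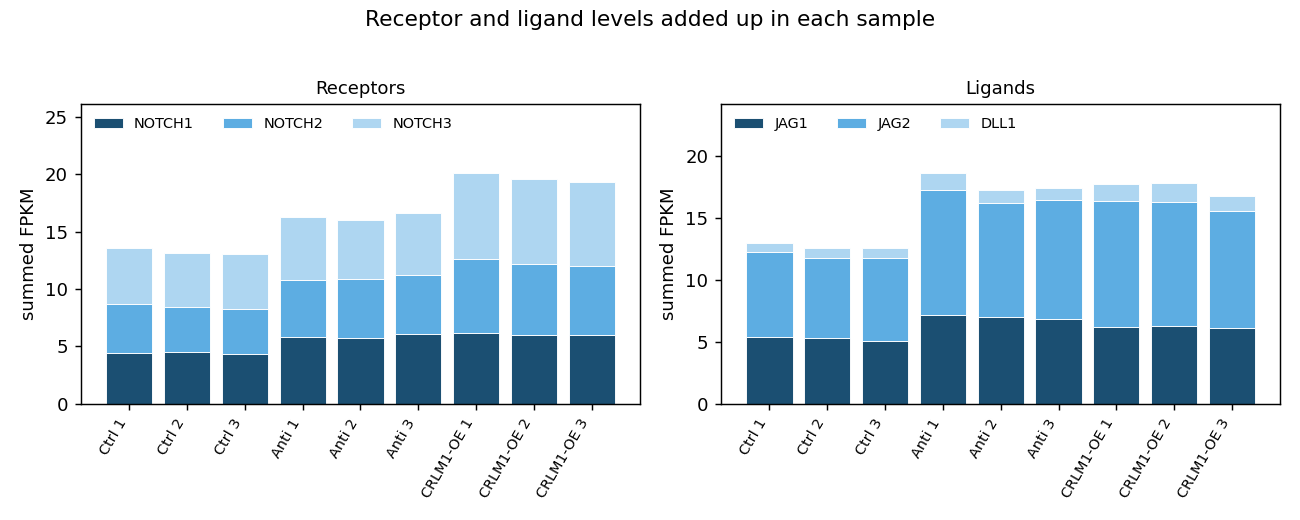
Summed FPKM (vertical axis) of the 3 receptors (left) and the 3 ligands (right) in each of the 9 samples (horizontal axis), with 1 colour per gene. The receptor bars rise from Ctrl (mean 13.2) through Anti (16.3) to CRLM1-OE (19.7), whereas the ligand bars of Anti (17.7) and CRLM1-OE (17.4) are of like height above Ctrl (12.7). FPKM is not scaled by the TMM factors.

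Among the ligands, JAG1 was highest in Anti and not in CRLM1-OE. JAG1 (ENSG00000101384.11, chr20:10637684-10673999, reverse strand), a Jagged ligand that is often raised in colorectal cancer, measured 6.18, 6.30 and 6.09 FPKM in CRLM1-OE, 5.38, 5.26 and 5.08 in Ctrl, and 7.18, 6.98 and 6.84 in Anti. The groups did not overlap and ran in the order Ctrl, CRLM1-OE, Anti. On the log2 scale the difference was 0.12 ± 0.044 for CRLM1-OE against Ctrl (adjusted p = 0.019), -0.23 ± 0.041 for CRLM1-OE against Anti (adjusted p = 2.1e-07) and 0.33 ± 0.043 for Anti against Ctrl (adjusted p = 7.4e-13). The first of these is the smallest difference that passed among the 10 genes in that comparison. Its call was lost without CRLM1-OE replicate 2 (0.11, adjusted p = 0.08) or without Ctrl replicate 3 (0.12, adjusted p = 0.056).

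JAG2, the second Jagged ligand, was the most abundant ligand in all 9 samples. JAG2 (ENSG00000184916.8, chr14:105140982-105168824, reverse strand) measured 10.2, 9.93 and 9.47 FPKM in CRLM1-OE, 6.81, 6.52 and 6.66 in Ctrl, and 10.03, 9.19 and 9.56 in Anti. As for NOTCH1, CRLM1-OE and Anti overlapped and both stood above Ctrl. The log2 fold changes from Ctrl were 0.45 ± 0.039 in CRLM1-OE (adjusted p = 2.9e-29) and 0.43 ± 0.039 in Anti (adjusted p = 6.5e-27). Between CRLM1-OE and Anti the 95% interval ran from -0.0741 to 0.0628 (adjusted p = 0.93). A lncRNA gene is annotated over part of JAG2 on the same strand, so some reads could belong to either.

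DLL1, a Delta ligand of crypt secretory progenitors, was expressed at a lower level. DLL1 (ENSG00000198719.8, chr6:170282206-170306565, reverse strand) measured 1.34, 1.60 and 1.18 FPKM in CRLM1-OE, 0.80, 0.75 and 0.82 in Ctrl, and 1.35, 1.06 and 0.97 in Anti, from between 97 and 204 counts per sample. Both other groups lay above Ctrl and overlapped with each other. The log2 fold change was 0.67 ± 0.13 for CRLM1-OE against Ctrl (adjusted p = 1.5e-06), and 0.43 ± 0.134 for Anti against Ctrl (adjusted p = 0.0078). The second fell to 0.268 without Anti replicate 1 and no longer passed (adjusted p = 0.25), nor did it pass with DESeq2 (adjusted p = 0.054) or with limma on log2(FPKM + 0.1) or log2(FPKM + 1) (adjusted p = 0.065 and 0.083). Against Anti the difference was 0.22 ± 0.119 (adjusted p = 0.15), and it passed without CRLM1-OE replicate 3 (0.327, adjusted p = 0.03) or without Anti replicate 1 (0.373, adjusted p = 0.02). FAM120B overlaps DLL1 on the opposite strand, and whether counting used strand is not stated. A lncRNA gene also lies within DLL1 on the same strand.

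The summed ligand level, also without TMM scaling, was 17.4 ± 0.6 FPKM (SD, n = 3) in CRLM1-OE, against 12.7 ± 0.257 in Ctrl and 17.7 ± 0.731 in Anti. JAG2 made up 56.6% ± 0.935 of it in CRLM1-OE, against 52.5% ± 0.499 in Ctrl and 54.1% ± 0.854 in Anti, and JAG1 35.5% ± 0.771, 41.3% ± 0.776 and 39.5% ± 0.921. The order of levels within a group also differed. In Ctrl the 3 receptors and JAG1 stood apart from each other without overlap, from JAG1 (5.24 FPKM) through NOTCH3 (4.81) and NOTCH1 (4.41) to NOTCH2 (4.03). In CRLM1-OE, NOTCH2 (6.22), JAG1 (6.19) and NOTCH1 (6.06) overlapped and NOTCH3 (7.39) lay above them.

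Of the ligands outside the chosen 10, DLL4, which is best known from sprouting vessels, had between 41 and 67 counts in CRLM1-OE, between 19 and 37 in Ctrl and between 21 and 27 in Anti. Its log2 fold change was 0.91 ± 0.239 against Ctrl (adjusted p = 0.00059) and 1.06 ± 0.243 against Anti (adjusted p = 4.9e-05), the latter past 2-fold. Anti and Ctrl overlapped for DLL4. DLL3 had at most 11 counts in a sample and passed nowhere.

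LFNG (Lunatic fringe, ENSG00000106003.12, chr7:2512529-2529177, forward strand) adds a sugar to the receptor that favours Delta over Jagged ligands. LFNG was low, at 0.36, 0.35 and 0.26 FPKM in CRLM1-OE, 0.33, 0.25 and 0.37 in Ctrl, and 0.49, 0.43 and 0.60 in Anti, from between 33 and 77 counts. Anti stood above both other groups, which overlapped. For LFNG the log2 fold change was -0.68 ± 0.199 for CRLM1-OE against Anti (adjusted p = 0.0025) and 0.58 ± 0.199 for Anti against Ctrl (adjusted p = 0.018), and the difference between CRLM1-OE and Ctrl had a 95% interval from -0.508 to 0.357 (adjusted p = 0.83). The call for Anti against Ctrl was lost without Ctrl replicate 2 (0.457, adjusted p = 0.13) or Anti replicate 3 (0.441, adjusted p = 0.16), with DESeq2 (adjusted p = 0.084) and with limma on FPKM.

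HES1 is the best known Notch target of the intestine, a repressor that binds N box DNA and holds back ATOH1 and with it the secretory lineage. HES1 (ENSG00000114315.3, chr3:194136148-194138732, forward strand) was the most abundant of the 10 genes, with 19.65, 20.49 and 19.91 FPKM in CRLM1-OE, 20.89, 21.56 and 22.08 in Ctrl, and 14.46, 14.76 and 15.70 in Anti. The groups did not overlap, and Anti lay lowest. For HES1 the log2 fold change was -0.61 ± 0.048 for Anti against Ctrl (adjusted p = 2.7e-35), 0.37 ± 0.048 for CRLM1-OE against Anti (adjusted p = 8.6e-14) and -0.22 ± 0.045 for CRLM1-OE against Ctrl (adjusted p = 8.6e-06). Its direction against Ctrl was the opposite of that of NOTCH1, NOTCH2, JAG1, JAG2 and DLL1, in CRLM1-OE as in Anti. Scaled by total counts, the CRLM1-OE value fell short of the threshold, at -0.0767 (adjusted p = 0.22).

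Against Ctrl, NRARP and HEY1 were higher in CRLM1-OE, where HES1 was lower. NRARP (ENSG00000198435.3, chr9:137299631-137302271, reverse strand), which encodes a small ankyrin protein that limits Notch signalling by binding the intracellular receptor, measured 3.31, 3.41 and 3.25 FPKM in CRLM1-OE, 2.12, 2.48 and 2.55 in Ctrl, and 2.84, 2.87 and 3.10 in Anti. CRLM1-OE was highest, Ctrl lowest, and no groups overlapped. The log2 fold change was 0.37 ± 0.107 for CRLM1-OE against Ctrl (adjusted p = 0.0021). The values of 0.13 ± 0.101 against Anti (adjusted p = 0.37) and 0.22 ± 0.11 for Anti against Ctrl (adjusted p = 0.16) did not pass, and limma on log2(FPKM + 0.1) called both, at 0.174 (adjusted p = 0.038) and 0.293 (adjusted p = 0.047). A lncRNA gene overlaps the end of NRARP on the opposite strand.

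HEY1 (ENSG00000164683.16), a repressor of the same family that often responds to Notch in vessels, was close to the lower end of detection, with 42, 24 and 36 counts in CRLM1-OE, 18, 22 and 12 in Ctrl, and 31, 18 and 27 in Anti. CRLM1-OE lay above Ctrl without overlap, and Anti overlapped both. The log2 fold change was 0.85 ± 0.296 against Ctrl (adjusted p = 0.015), the largest estimate of the 10 genes and the one with the widest interval, from 0.269 to 1.43. Its call was lost without CRLM1-OE replicate 1 (0.756, adjusted p = 0.066), Ctrl replicate 1 (0.776, adjusted p = 0.057) or Ctrl replicate 3 (0.72, adjusted p = 0.069). The call was also lost with DESeq2 (adjusted p = 0.074) and with limma on log2(FPKM + 0.1) (0.661, adjusted p = 0.06). Without Ctrl replicate 2 the estimate passed 2-fold at 1.11. The differences of 0.35 ± 0.273 from Anti (adjusted p = 0.38) and of 0.48 ± 0.31 between Anti and Ctrl (adjusted p = 0.34) did not pass.

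Of the HES and HEY genes outside the chosen 10, HES4, HES2 and HES7 differed from Ctrl in CRLM1-OE by more than any of the 10 did. HES4, a repressor closely related to HES1, was the most abundant gene of the family, with 97.47, 96.22 and 96.57 FPKM in CRLM1-OE, 45.67, 48.76 and 47.49 in Ctrl, and 47.11, 46.51 and 48.50 in Anti. CRLM1-OE stood far above both controls, which overlapped. HES4 had a log2 fold change of 0.92 ± 0.034 against Ctrl (adjusted p = 2e-160) and 0.99 ± 0.032 against Anti (adjusted p = 3e-208), and Anti and Ctrl differed by -0.088 ± 0.038 (adjusted p = 0.082).

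HES2, which is less well characterised, measured between 3.98 and 4.41 FPKM in CRLM1-OE, between 1.83 and 1.98 in Ctrl and between 2.33 and 2.48 in Anti. Its log2 fold change was 1.03 ± 0.064 against Ctrl (adjusted p = 1.3e-56), past 2-fold, and 0.77 ± 0.061 against Anti (adjusted p = 4.9e-35). HES7, the repressor of the segmentation clock, had 26, 20 and 17 counts in CRLM1-OE, 3, 4 and 5 in Ctrl and 4, 5 and 3 in Anti, with log2 fold changes of 2.24 ± 0.469 (adjusted p = 9.8e-06) and 2.29 ± 0.466 (adjusted p = 4.1e-06). The HES7 counts of the controls were at or just above the 3 counts taken as the floor. HEY2 had 5, 6 and 8 counts in CRLM1-OE, 1, 3 and 3 in Ctrl and 0, 0 and 1 in Anti, and passed 2-fold against Anti (adjusted p = 0.0025), a count too low for a useful fold.

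HEYL and HES6 completed the family. HEYL, another RBPJ target, measured between 2.67 and 2.90 FPKM in CRLM1-OE, between 1.84 and 2.26 in Ctrl and between 2.73 and 2.85 in Anti, and was higher than Ctrl by 0.29 ± 0.083 in CRLM1-OE (adjusted p = 0.0016) and by 0.32 ± 0.084 in Anti (adjusted p = 0.001), the latter not passing without Ctrl replicate 1 (0.22, adjusted p = 0.075). HES6, which opposes HES1, was between 12.75 and 16.04 FPKM and passed in no comparison. Over the whole group of HES and HEY repressors with NRARP, 10 of 11 listed genes had values, of which CRLM1-OE had 6 above Ctrl and 1 below it, 5 higher and 0 lower than in Anti, and 2 higher and 1 lower in Anti than in Ctrl. Among all genes averaging 100 counts or more, which not all of the 10 did, 29.2% were higher and 38.8% lower than in Ctrl. Against Anti the shares were 33.9% and 40.2%, and for Anti against Ctrl 25.3% and 28.9%. The median log2 fold change of the 10 was 0.885, 0.57 and 0.0158 in the 3 comparisons. These medians take in HES3 (at most 3 counts in a sample), HEY2 and HES7, whose fold changes rest on low counts.

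**Figure D4:**
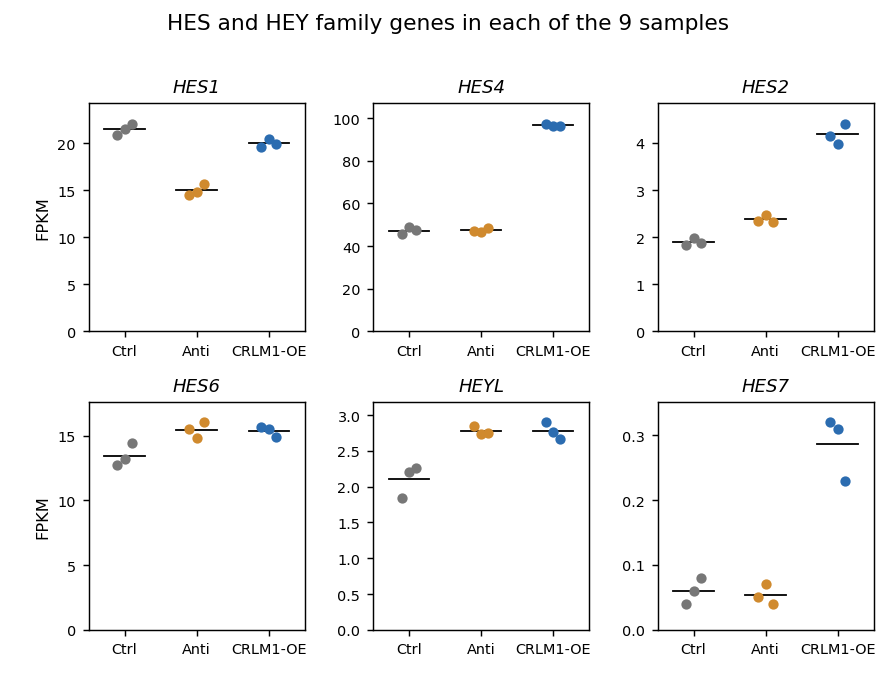
FPKM (vertical axes, each from 0) of 6 HES and HEY genes in the 9 samples, with 1 point per replicate and a line at the group mean. HES4 rises from 47.3 in Ctrl and 47.4 in Anti to 96.8 in CRLM1-OE, HES2 and HES7 are also highest in CRLM1-OE, and HES1 is lowest in Anti at 15.0.

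Because HES1 and HES4 share ancestry but differed in their order across the groups, the stretches before their starts were read from RefSeq promoter windows (GRCh38.p14), together with that of HEYL. A window holds the 250 bases before and the 50 bases after a start, and 8 of the 10 genes had one, DLL1 and HEY1 being without. The RBPJ core TGGGAA was searched on both strands. It occurred in the windows of 2 of the 8 genes, HES1 with 2 matches and LFNG with 1 in each of 2 windows, whereas 24.0% of all 35116 windows held at least 1 match and 3.8% held at least 2. The 250 bases before each start are shown in the 5′ to 3′ direction of the gene, with the core in capitals (TTCCCA where it reads on the other strand), for HES1 (chr3:194135898-194136147, forward strand), HES4 (chr1:1000098-1000347, reverse strand) and HEYL (chr1:39639644-39639893, reverse strand).
HES1: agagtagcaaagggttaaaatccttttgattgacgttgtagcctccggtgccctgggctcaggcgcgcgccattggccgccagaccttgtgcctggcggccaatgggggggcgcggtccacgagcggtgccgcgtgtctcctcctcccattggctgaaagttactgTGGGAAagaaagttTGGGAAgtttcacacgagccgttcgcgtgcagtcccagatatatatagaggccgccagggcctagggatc
HES4: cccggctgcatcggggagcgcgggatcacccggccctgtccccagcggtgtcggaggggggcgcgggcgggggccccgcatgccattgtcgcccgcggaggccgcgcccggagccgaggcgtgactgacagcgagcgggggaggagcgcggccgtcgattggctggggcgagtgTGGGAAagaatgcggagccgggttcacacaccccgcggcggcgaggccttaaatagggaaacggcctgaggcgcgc
HEYL: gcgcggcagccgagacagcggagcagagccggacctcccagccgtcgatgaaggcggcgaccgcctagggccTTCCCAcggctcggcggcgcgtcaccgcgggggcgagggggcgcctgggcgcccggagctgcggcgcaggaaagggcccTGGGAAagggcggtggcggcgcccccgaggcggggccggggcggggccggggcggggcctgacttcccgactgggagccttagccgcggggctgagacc

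The cores of HES1 began 84 and 70 bases before the start, that of HES4 76 bases before it, and those of HEYL 178 and 99 bases before it. HES1 and HES4 shared a run of 12 bases, tgTGGGAAagaa, which began 86 bases before the start of HES1 and 78 bases before that of HES4 and was found on either strand in 8 of all 35116 windows (0.0228%). This run was picked as the longest one shared by HES1 and HES4, whose windows are among the 8, so its rarity is no test. HES1 was lower and HES4 higher in CRLM1-OE than in Ctrl, and both were higher than in Anti. The HES1 difference from Ctrl did not pass with total counts as the scaling (-0.0767, adjusted p = 0.22). Whether the shared letters bear on these differences was not tested. The N box CACNAG, to which HES proteins bind, was searched on both strands as well. It was found in 6 of the 8 windowed genes, with 4 matches for HES1 and none for JAG1 and JAG2, and 38.0% of all windows held at least 1 and 1.51% at least 3. The NOTCH1 window held 2 matches that overlap each other across the start. These matches describe the letters of the windows and were not tied to any measured binding.

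Beyond the 10 genes, 66 further genes of the pathway were listed, and 61 had values in the count table. Relative to Ctrl, 23 were higher and 18 lower in CRLM1-OE, and 19 were higher and 22 lower than in Anti. Not all of the 61 averaged 100 counts or more. Among all genes that did, 29.2% were higher and 38.8% lower than in Ctrl, and 33.9% higher and 40.2% lower than in Anti. Between Anti and Ctrl 20 were higher and 11 lower, beside 25.3% and 28.9% of those genes, and the lower count was 7 without Ctrl replicate 2 or without Anti replicate 1 and 2 with total counts as the scaling. The median log2 fold changes were 0.0389, -0.0554 and 0.01, so the 61 genes had no common direction. The 2-fold limit was passed by 5, 6 and 0 of them, beside 3.41%, 5.65% and 1.06% of all genes tested. Those past it include HES7, and against Anti also HEY2, both with low counts.

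Of the 9 genes for proteases that cut the receptor, CRLM1-OE had 6 lower and 2 higher than in Ctrl, and 6 lower and 0 higher than in Anti. Among all genes averaging 100 counts or more, as these 9 did, 38.8% were lower than in Ctrl and 40.2% lower than in Anti. ADAM17, a sheddase of the receptor and of growth factors, measured between 6.96 and 7.25 FPKM in CRLM1-OE, between 9.47 and 9.98 in Ctrl and between 11.43 and 12.61 in Anti, with log2 fold changes of -0.57 ± 0.041 (adjusted p = 2.8e-43) and -0.80 ± 0.037 (adjusted p = 2.9e-100). ADAM10, the protease that makes the first ligand-dependent cut, differed by -0.42 ± 0.043 and -0.56 ± 0.041 (adjusted p = 2.4e-21 and 6.5e-42), and APH1A, a gamma-secretase subunit, by -0.47 ± 0.028 and -0.33 ± 0.025 (adjusted p = 2.4e-62 and 1.2e-37). In Anti, 4 of the 9 were higher than in Ctrl, among them ADAM17 by 0.21 and the presenilin gene PSEN2 by 0.23, and 2 were lower. In that comparison 25.3% of genes averaging 100 counts or more were higher and 28.9% lower.

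Among the enzymes that put sugars on the receptor, POGLUT1, which adds O-glucose to its EGF repeats, had the largest change. POGLUT1 measured 0.75, 0.57 and 0.54 FPKM in CRLM1-OE, 1.45, 1.31 and 1.33 in Ctrl, and 2.24, 2.45 and 2.24 in Anti. CRLM1-OE lay below Ctrl and Ctrl below Anti, without overlap. POGLUT1 had a log2 fold change of -1.24 ± 0.13 against Ctrl (adjusted p = 2.4e-20), -1.93 ± 0.113 against Anti (adjusted p = 1.1e-63) and 0.67 ± 0.096 for Anti against Ctrl (adjusted p = 7.9e-11). MFNG (Manic fringe) rose in CRLM1-OE by 0.69 ± 0.16 against Ctrl (adjusted p = 7.2e-05) and by 0.96 ± 0.164 against Anti (adjusted p = 3.2e-08), opposite to its relative LFNG in the comparison with Anti. POFUT1, which adds the O-fucose that fringe enzymes extend, was 0.19 higher in Anti than in Ctrl (adjusted p = 1.5e-05).

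Genes of receptor trafficking and turnover moved both ways, with 3 of 9 above and 3 below Ctrl in CRLM1-OE, 4 higher and 3 lower than in Anti, and 3 in each direction between Anti and Ctrl. The shares among all genes averaging 100 counts or more were 29.2% higher and 38.8% lower than in Ctrl, and 33.9% and 40.2% than in Anti. Between Anti and Ctrl they were 25.3% and 28.9%. Not all of the 9 genes reached that mean. DTX3L, an E3 ligase that is also known as an interferon-stimulated gene, had the same order as POGLUT1, with between 1.45 and 1.88 FPKM in CRLM1-OE, between 3.53 and 3.63 in Ctrl and between 4.73 and 5.21 in Anti. Its log2 fold change was -1.20 ± 0.065 against Ctrl (adjusted p = 1.3e-73), -1.63 ± 0.06 against Anti (adjusted p = 1.2e-159) and 0.40 ± 0.051 for Anti against Ctrl (adjusted p = 1.1e-13). FBXW7, the ubiquitin ligase subunit that marks the Notch intracellular part for degradation, was higher in CRLM1-OE by 0.80 ± 0.071 against Ctrl (adjusted p = 3.3e-28) and by 0.44 ± 0.066 against Anti (adjusted p = 1.3e-10), and in Anti by 0.33 against Ctrl (adjusted p = 0.00016). AAK1, an endocytic kinase, was lower in CRLM1-OE, at -0.70 against Ctrl (adjusted p = 2.2e-18) and -0.82 against Anti (adjusted p = 8.2e-27). Of the 4 E3 ligases that help ligand endocytosis, NEURL1B was higher in CRLM1-OE by 0.64 against Ctrl (adjusted p = 3.4e-08) and 0.50 against Anti (adjusted p = 9.9e-06). NEURL1 differed from Anti by -0.17 (adjusted p = 0.0034), which did not pass without CRLM1-OE replicate 1 (-0.138, adjusted p = 0.057), with total counts (-0.115, adjusted p = 0.076) or with limma on log2(FPKM + 0.1) or log2(FPKM + 1) (adjusted p = 0.12 and 0.13).

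In the nuclear activation complex, 4 of 9 genes had risen and 3 had fallen in CRLM1-OE relative to Ctrl, 1 higher and 5 lower than in Anti, and 5 higher and 0 lower in Anti than in Ctrl. Of all genes averaging 100 counts or more, 29.2% were higher and 38.8% lower than in Ctrl, and 33.9% and 40.2% than in Anti. Between Anti and Ctrl these shares were 25.3% and 28.9%. Not every one of the 9 genes reached that mean. RBPJ measured between 5.86 and 6.07 FPKM in CRLM1-OE, between 5.70 and 6.30 in Ctrl and between 7.14 and 7.81 in Anti. It was lower in CRLM1-OE than in Anti, with a log2 fold change of -0.37 ± 0.039 (adjusted p = 1.7e-20), and its difference of -0.12 from Ctrl passed (adjusted p = 0.021) although the FPKM values overlapped, and is smaller than the general shift between scalings. Of the Mastermind coactivators, MAML1 and MAML3 were above Ctrl in both other groups and MAML2 was below it in CRLM1-OE. Against Ctrl, MAML1 was higher in CRLM1-OE by 0.60 ± 0.05 (adjusted p = 1.1e-31) and in Anti by 0.41 (adjusted p = 5.2e-14), MAML3 was higher in CRLM1-OE by 0.58 ± 0.095 (adjusted p = 1.1e-08) and in Anti by 0.56 (adjusted p = 4.7e-08), and MAML2 was lower in CRLM1-OE at -0.60 ± 0.108 (adjusted p = 1.6e-07).

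Of the corepressors that act with RBPJ or HES proteins, 12 of 13 had values, of which CRLM1-OE had 5 above and 4 below Ctrl, 7 higher and 5 lower than in Anti, and 3 higher and 5 lower in Anti than in Ctrl. Genes averaging 100 counts or more were 29.2% higher and 38.8% lower than in Ctrl, and 33.9% and 40.2% than in Anti. Between Anti and Ctrl their shares were 25.3% and 28.9%. TLE1, a Groucho corepressor that HES and HEY proteins recruit, measured 19.41, 17.98 and 18.77 FPKM in CRLM1-OE, 7.46, 7.16 and 7.91 in Ctrl, and 7.23, 6.93 and 8.09 in Anti. CRLM1-OE stood far above the controls, which overlapped and differed by -0.11 (adjusted p = 0.048), about the size of the general shift between scalings. The log2 fold change of TLE1 was 1.20 ± 0.037 against Ctrl (adjusted p = 1.8e-235) and 1.29 ± 0.035 against Anti (adjusted p = 1.2e-297), past 2-fold in both. SPEN, which bridges RBPJ to repression, was higher in Anti than in Ctrl by 0.45 ± 0.034 (adjusted p = 7.9e-40), while CIR1 was lower in Anti at -0.37 (adjusted p = 0.00037) and higher in CRLM1-OE than in Anti by 0.62 (adjusted p = 7.5e-12).

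**Figure D5:**
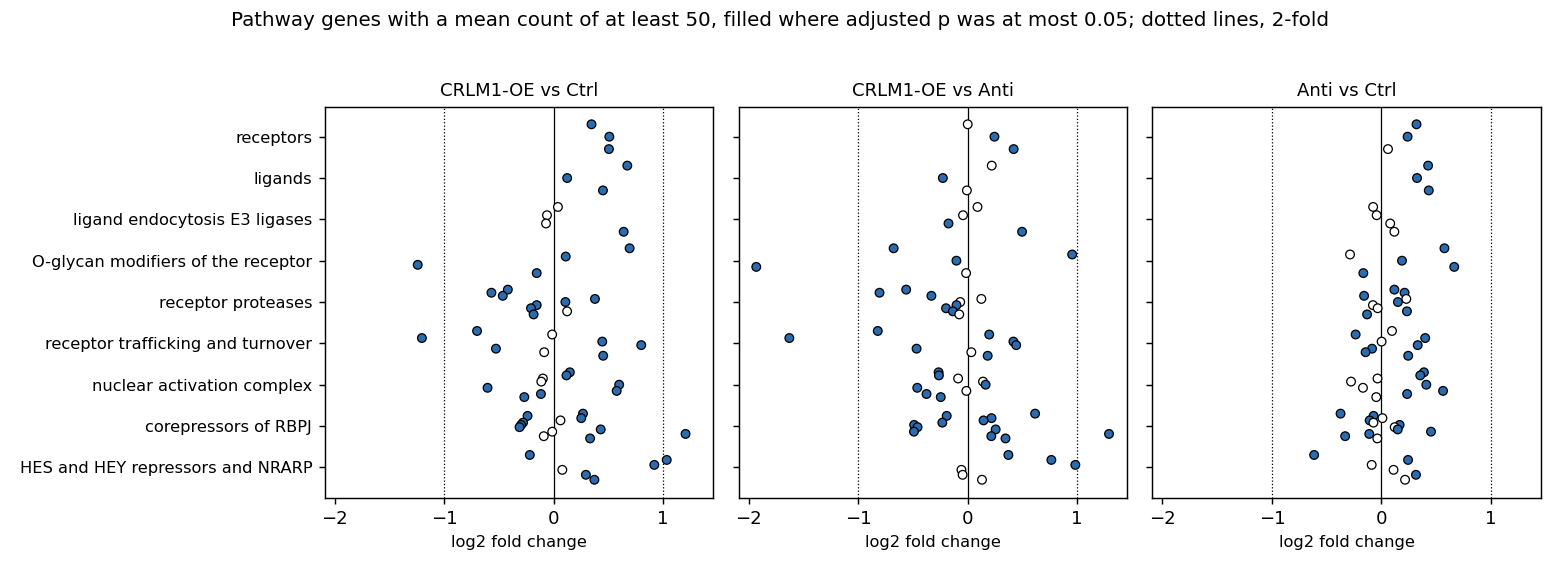
Log2 fold change (horizontal axis) of pathway genes averaging 50 counts or more (58, 59 and 59 genes in the 3 panels), those of the 10 chosen genes that reach this mean included, by role (rows), filled where the adjusted p was at most 0.05, with dotted lines at a 2-fold change. Receptors and ligands lie at or right of 0 against Ctrl, proteases lie mostly left of 0 in the comparisons of CRLM1-OE, and POGLUT1, DTX3L, TLE1 and HES2 are beyond 2-fold against Ctrl.

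Genes of the secretory lineage that HES1 is known to repress gave little signal. Of 6 listed, 4 had values, and ATOH1 had at most 1 count in a sample. GFI1, a zinc finger repressor of secretory progenitors, was higher than Ctrl by 0.55 ± 0.148 in CRLM1-OE (adjusted p = 0.00097) and by 0.43 ± 0.151 in Anti (adjusted p = 0.022). The second of these did not pass when Ctrl replicate 1 (0.341, adjusted p = 0.14), Ctrl replicate 2 (0.399, adjusted p = 0.068), Anti replicate 1 (0.405, adjusted p = 0.066) or Anti replicate 3 (0.323, adjusted p = 0.2) was left out. Nor did it pass with DESeq2 (adjusted p = 0.1) or with limma on log2(FPKM + 0.1) or log2(FPKM + 1) (adjusted p = 0.12 for each).

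Likeness of pattern was described for 1 receptor, 1 ligand and 1 target by Pearson's r of log2 CPM across the 9 samples, over 11701 genes averaging 100 counts or more. The genes closest to NOTCH1 were RRP1B (r = 0.9894), LRRC47 (0.9856) and ZXDC (0.9851). Those closest to JAG1 were SMAD3 (0.9906), MCL1 (0.9903) and PACSIN2 (0.9899), and those closest to HES1 were ZNF593 (0.9946), RAB25 (0.9941) and ANGPTL4 (0.9907). None of these 9 belongs to the pathway lists. The 9 samples fall into 3 groups, so these values rest mainly on the order of the group means.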

How the data were processed

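PolyA RNA of HCT116 cells was sequenced in 9 samples, which were grouped by their labels. The authors trimmed the reads, aligned them to GRCh38 with TopHat2 and deposited unnormalised counts of uniquely mapped reads per Gencode gene. The authors also deposited FPKM values to 2 decimals. Both tables hold only genes the authors call expressed. Whether counting used strand, and whether a read pair counted once, is not given in the sources used here, so reads of overlapping genes cannot be told apart. Beside the overlaps named above, lncRNA genes overlap NOTCH1, NOTCH2, JAG1, HEYL and HEY2 on the opposite strand. At these depths 3 counts correspond to between 0.0674 and 0.0901 CPM, with counting error alone considered.

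Differences were tested with the quasi-likelihood functions glmQLFit and glmQLFTest (two-sided, TMM normalisation) of edgeR 4.0.16, running under R 4.3.3, on the 6 samples of each comparison with no covariate. P values were adjusted by the Benjamini-Hochberg method across all genes holding 1 or more counts there. The SE is the log2 fold change divided by the square root of the F statistic. Alternatives were RLE factors, total counts, filterByExpr, a minimum of 10 counts, DESeq2 1.42.0, limma 3.58.1 on log2(FPKM + 0.1) and log2(FPKM + 1), a fit of all 9 samples, a replicate block and each replicate left out. The tests were tested on simulated data. Figures were drawn with matplotlib.

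The 10 genes and the pathway lists were chosen with earlier results of these data known. Named in addition were list genes past 2-fold, up to 2 passing genes of largest change per list and comparison with a mean count of at least 50, and the 3 genes most like NOTCH1, JAG1 and HES1. Genes of the receptor, ligand, HES and secretory lists beside these (NOTCH4, DLL3, HES3, HES6, ATOH1), some values of named genes in further comparisons, and the HES4 and HEYL sequences were chosen after their values were seen. Gene positions are from GENCODE version 44. A gene that the naming rule gives is not reported here.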

Additional observations from a re-analysis of the deposited data

How the results depend on the processing

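Of 450 recomputed log2 fold changes of the 10 genes, 422 stayed on their side of the threshold, 19 lost the call, 9 gained one and 0 changed sign while past it. Estimates near 0 that did not pass changed sign for LFNG against Ctrl and for NOTCH1 and JAG2 against Anti. The number of Notch genes lower in CRLM1-OE than in Ctrl was 0 with total counts, and that lower in CRLM1-OE than in Anti was 1 with limma on log2(FPKM + 0.1) and 1 with limma on log2(FPKM + 1), LFNG being lost (adjusted p = 0.081 and 0.057). With single replicates left out, the number past 2-fold against Ctrl ranged from 0 to 1, the 1 being HEY1 without Ctrl replicate 2. The replicate block left the counts against Ctrl at 8 higher and 1 lower and changed no call of the 10 genes. Samples of the same number did not deviate together (correlations between -0.0749 and 0.0782), so the numbers were not taken as pairs. Of the other 61 pathway genes, 11 in place of 18 were lower than in Ctrl with limma on FPKM, and 2 with log2(FPKM + 1) in place of 5 were past 2-fold. Between Anti and Ctrl 2 in place of 11 were lower with total counts or limma, and 1 passed 2-fold with total counts, with all 9 samples fitted and without Anti replicate 3. Summed as CPM in place of FPKM, NOTCH2 held the largest receptor share in every group (43.9% to 45.3%), since CPM is not scaled for length. The cause of the other changes was not tested. HEY1 and LFNG had under 80 counts per sample, which limits their precision.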
